A study of Mus musculus with 6 samples.

Results

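Fcgr1, Fcgr2b, Fcgr3, Fcgr4, Fcgrt, Pirb, Sirpa and Cd47 were followed in mouse myeloid cells with and without induction of PU.1, the product of Spi1 and a transcription factor of the ETS family that drives myeloid development. They comprise the Fc gamma receptors, the neonatal Fc receptor, a pair of inhibitory receptors and the ligand of one of these. The 8 genes were taken by symbol from 22180 genes with a transcript cluster (an array row) annotated to that gene alone, and each had 1 such cluster. The cells, which the labels call myeloid cells of fetal liver, were kept with 1 ng/ml of the myeloid growth factor GM-CSF. Of the 6 arrays, 3 were from uninduced control cells and 3 from cells given 1000 ng/ml doxycycline for 72 hours, a treatment that the labels equate with PU.1 expression. Both groups were in GM-CSF, no group had doxycycline without PU.1 induction, and the construct is not described in the labels, so effects of the drug and of PU.1 cannot be told apart. Values of a group are given in the order of its replicates A, B and C. Whether these were separate cultures is not in the labels, so the p-values may rest on technical spread alone.

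Fc gamma receptors bind the constant part of IgG and tell a phagocyte that a particle is coated with antibody. Mouse myeloid cells carry activating receptors, encoded by Fcgr1, Fcgr3 and Fcgr4, which signal through the ITAM (activating tyrosine motif) of the common gamma chain, Fcer1g. The inhibitory receptor encoded by Fcgr2b carries an ITIM (inhibitory tyrosine motif) that recruits phosphatases, chiefly the inositol phosphatase SHIP1, and raises the threshold for activation. Pirb and Sirpa also carry ITIMs and recruit the tyrosine phosphatases SHP-1 and SHP-2, Pirb on binding MHC class I and Sirpa on binding Cd47, the "do not eat me" signal of healthy cells. Fcgrt is of another kind: it encodes the heavy chain of the neonatal Fc receptor, which rescues IgG and albumin from lysosomal breakdown.

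Of the 8 genes 1 passed the test and rose in the induced cells: Pirb, 2.75-fold. The size of this rise is uncertain, since uninduced A and B were near the background level described below. Fcgrt was 1.89-fold higher without passing it. Fcgr2b, Fcgr4, Fcgr3 and Cd47 were lower, and Sirpa and Fcgr1 higher, by amounts that did not pass. The test was limma with Benjamini-Hochberg adjustment over all 22180 genes at an adjusted p under 0.05, and 0.374% of all genes passed it as higher and 1.05% as lower. A change is the difference of mean log2 values, induced minus uninduced. The members' changes lay above 0 in 4 genes and below 0 in 4, with a median of -0.02, while 56% of all genes lay above 0 with a median of 0.06.

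Array medians over the 22180 genes ran from 6.79 to 7.01, and 1390 olfactory and vomeronasal receptor genes, which these cells are not known to use, served as a reference for background. A value under the 95th percentile of that reference on the same array (7.05 to 7.99 over the 6 arrays) is called in the range of background. Induced A stood apart from induced B and C: leaving it out changed the genes called from 83 higher and 232 lower to 1998 and 3535. The background level was 7.99 and 7.86 on induced B and C, and their interquartile ranges over all genes were 1.88 and 1.93. Induced A, at 7.39 and 2.29, was nearer to the uninduced arrays, at 7.05 to 7.37 and 2.31 to 2.76. The higher background and narrower spread thus fell in induced B and C only, and their part in the changes was not tested. Spi1 itself was at 8.80, 8.65 and 8.84 in the uninduced arrays and at 9.13, 9.04 and 9.05 in the induced ones, a change of 0.31 (SE 0.12, limma adjusted p = 0.152). Whether its cluster reads the induced gene is not known here. The labelled cell type was checked against marker genes. Of 11 neutrophil and precursor genes 5 exceeded the range of background on every uninduced array and 7 on every induced one. Elane, Ngp and S100a8, named after their values were seen, did so in both groups, at mean log2 values between 12.11 and 13.41. Another 6, Mpo, Ltf, Mmp8, Mmp9, Csf3r and Ly6g, exceeded it on no uninduced array. Csf1r, the macrophage growth factor receptor, and Ptprc, the leukocyte antigen CD45, were in that range on all 6.

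RefSeq promoter sequences (build GRCm38.p6) were found for 7 of the 8 genes, all but Sirpa. The 250 bases before the annotated start were searched on both strands for GAGGAA, which reads TTCCTC on the other strand, a purine-rich core of the kind that PU.1 binds. They were also searched for the longer GAGGAAGT, which reads ACTTCCTC on the other strand, every match of which is also a match of the shorter motif. The windows of 4 genes held GAGGAA, beside 23.3% of all 32851 promoter windows of that length: Pirb with 3 matches, and Fcgr1, Fcgr3 and Fcgr4 with 1 each. GAGGAAGT was in 2.44% of all windows and in those of Pirb and Fcgr4. A match is a description of letters and not a binding site. Below are the windows of Pirb, the gene that rose, of Fcgrt, the gene with the next largest change, and of the neighbours Fcgr4 and Fcgr2b, which were lower, each 5′ to 3′ in the direction of transcription, with the matches in capitals.
Pirb (chr7:3720383-3720632, minus strand): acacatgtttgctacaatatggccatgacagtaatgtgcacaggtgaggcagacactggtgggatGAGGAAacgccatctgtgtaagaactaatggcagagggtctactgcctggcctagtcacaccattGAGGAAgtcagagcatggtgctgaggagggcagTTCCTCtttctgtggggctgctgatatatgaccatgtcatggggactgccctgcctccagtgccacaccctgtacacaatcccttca
Fcgrt (chr7:45103823-45104072, minus strand): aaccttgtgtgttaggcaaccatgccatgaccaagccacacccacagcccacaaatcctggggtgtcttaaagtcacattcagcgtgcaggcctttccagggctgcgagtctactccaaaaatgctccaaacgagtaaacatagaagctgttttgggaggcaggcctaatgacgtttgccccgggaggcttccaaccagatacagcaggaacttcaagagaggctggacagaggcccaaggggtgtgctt
Fcgr4 (chr1:171018676-171018925, plus strand): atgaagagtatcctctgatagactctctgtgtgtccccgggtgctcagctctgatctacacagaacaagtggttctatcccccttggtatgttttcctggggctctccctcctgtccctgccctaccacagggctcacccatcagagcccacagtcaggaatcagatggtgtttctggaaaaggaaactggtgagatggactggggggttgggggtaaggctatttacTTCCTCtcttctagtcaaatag
Fcgr2b (chr1:170976072-170976321, minus strand): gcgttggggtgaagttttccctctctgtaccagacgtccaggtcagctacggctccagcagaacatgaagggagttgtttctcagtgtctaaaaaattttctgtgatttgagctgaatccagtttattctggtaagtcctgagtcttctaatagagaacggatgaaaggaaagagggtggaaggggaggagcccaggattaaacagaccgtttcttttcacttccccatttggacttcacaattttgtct
The 3 matches of Pirb begin at positions -185, -120 and -87, counted back from -1, the base before the start, and the match at -120 extends to GAGGAAGT. The match of Fcgr4, TTCCTC, begins at -22, and with the bases just before it reads ACTTCCTC. The capitals mark the shorter motif only. The other 2 windows hold neither motif, though their genes differed in direction.

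Pirb (gene 18733, chromosome 7, 3712505 to 3720382 in GRCm38) encodes PIR-B, an inhibitory receptor of myeloid and B cells that restrains integrin and Fc receptor signalling. Its log2 value was 7.35, 7.07 and 7.71 in the uninduced arrays and 8.79, 8.78 and 8.94 in the induced ones. All 3 induced arrays lay above all 3 uninduced ones, by more than 1 on the log2 scale, and the induced values were close to each other. Uninduced A was in the range of background and uninduced B just above it, while all 3 induced arrays were above it. The size of the rise is thus uncertain. The mean rose from 7.38 ± 0.32 to 8.84 ± 0.09 (SD, n = 3), a change of 1.46 (SE 0.17, 95% interval 1.09 to 1.83, limma adjusted p = 0.00216). By unadjusted p it ranked 39 of the 22180 genes, and by size of rise 29. Against the uninduced mean the rise was 1.42, 1.40 and 1.56 on the induced arrays, so it was as large in the array that stood apart. The call held in 15 of 16 alternative settings and was lost with induced A alone against the uninduced arrays (1.42, adjusted p = 0.074). In these mixed RNA samples more RNA per cell and more cells that express a gene cannot be told apart. Pirb lies beside the Pira genes, which encode activating receptors nearly identical to PIR-B outside the cell. The 1 array row annotated to several Pira genes at once was not used, and how far the Pirb probes also read Pira RNA is not known here.

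Sirpa (gene 19261, chromosome 2, 129591042 to 129632228) encodes the inhibitory receptor of macrophages and granulocytes for Cd47. Its log2 values were 10.48, 10.40 and 10.47 in the uninduced arrays and 10.69, 10.53 and 10.54 in the induced ones. The groups did not overlap, but lay close together, with the largest value in induced A. The change was 0.13 (SE 0.12, 95% interval -0.14 to 0.41, adjusted p = 0.433), or 1.10-fold, and did not pass. Its size depended on the scaling: it was 0.02 after each array was centred on its median, 0.33 after quantile normalization and 0.46 after cyclic loess, a scaling that removes differences between arrays that vary with level (adjusted p = 0.131). Cd47 (gene 16423, chromosome 16, 49851328 to 49912503), its ligand, was at 12.05, 12.10 and 12.12 in the uninduced arrays and at 11.98, 11.86 and 11.88 in the induced ones. All induced values lay below all uninduced ones, within a narrow span. The change was -0.18 (SE 0.12, adjusted p = 0.299) and was on the other side of 0 after cyclic loess (0.03).

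Fcgr2b (gene 14130, chromosome 1, 170960558 to 170976071), the inhibitory IgG receptor, was at 10.67, 11.09 and 10.77 in the uninduced arrays and at 10.44, 10.28 and 10.30 in the induced ones. The groups did not overlap, and uninduced B was the highest. The mean was 10.84 ± 0.22 and 10.34 ± 0.09 (SD, n = 3), a change of -0.50 (SE 0.15, 95% interval -0.82 to -0.18, adjusted p = 0.104), or 1.42-fold lower. It passed the test without induced A (-0.55, adjusted p = 0.0317), a setting in which 1998 genes were called higher and 3535 lower, and was smaller after cyclic loess (-0.18) and without uninduced B (-0.38). Thus of the 3 inhibitory receptors Pirb rose, Fcgr2b was lower and Sirpa slightly higher, and only the rise of Pirb passed the test.

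The activating receptors did not pass the test in either direction. Fcgr4 (gene 246256, chromosome 1, 171018926 to 171029761), a receptor of IgG2a, IgG2b and IgE, was at 7.59, 7.86 and 8.0 in the uninduced arrays and at 7.39, 7.53 and 7.20 in the induced ones. The groups did not overlap. All 3 uninduced arrays were above the range of background, and of the induced ones only A, barely. This count depends on the cut-off, which was 7.99 and 7.86 on induced B and C and 7.05 to 7.37 on the uninduced arrays. The value on induced B, 7.53, was above the cut-off of every uninduced array. The change was -0.44 (SE 0.15, 95% interval -0.78 to -0.11, adjusted p = 0.126), or 1.36-fold lower, and -0.34 after cyclic loess. Fcgr3 (gene 14131, chromosome 1, 171051169 to 171065915), the low-affinity activating receptor, was at 8.75, 8.48 and 8.78 in the uninduced arrays and at 8.56, 8.42 and 8.29 in the induced ones. Here the groups overlapped, uninduced B lying below induced A. The change was -0.25 (SE 0.14, adjusted p = 0.239), and 0.07 after cyclic loess, so its direction was not settled. Fcgr1 (gene 14129, chromosome 3, 96282909 to 96293969), the high-affinity receptor of monocytes and macrophages, was in the range of background on all 6 arrays. It was at 6.63, 6.22 and 6.63 in the uninduced arrays and at 6.70, 6.61 and 6.93 in the induced ones, which overlapped, so no level or size is drawn from its change of 0.25 (adjusted p = 0.276).

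Fcgrt (gene 14132, chromosome 7, 45092993 to 45103822) had the next largest change after Pirb. Its log2 value was 9.09, 8.58 and 9.15 in the uninduced arrays and 10.18, 9.98 and 9.41 in the induced ones. The groups did not overlap, but induced C lay nearer to the uninduced arrays than to induced A and B. The mean went from 8.94 ± 0.31 to 9.86 ± 0.40 (SD, n = 3), a change of 0.92 (SE 0.22, 95% interval 0.44 to 1.40), or 1.89-fold, with an adjusted p of 0.0682 by limma. It passed in 7 of 16 alternative settings, among them without induced A (0.76, adjusted p = 0.0311), without induced C (1.14, adjusted p = 0.0496) and after cyclic loess (1.29, adjusted p = 0.0483). With array weights, which rest mostly on the C arrays, the change was 0.44.

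**Figure D1:**
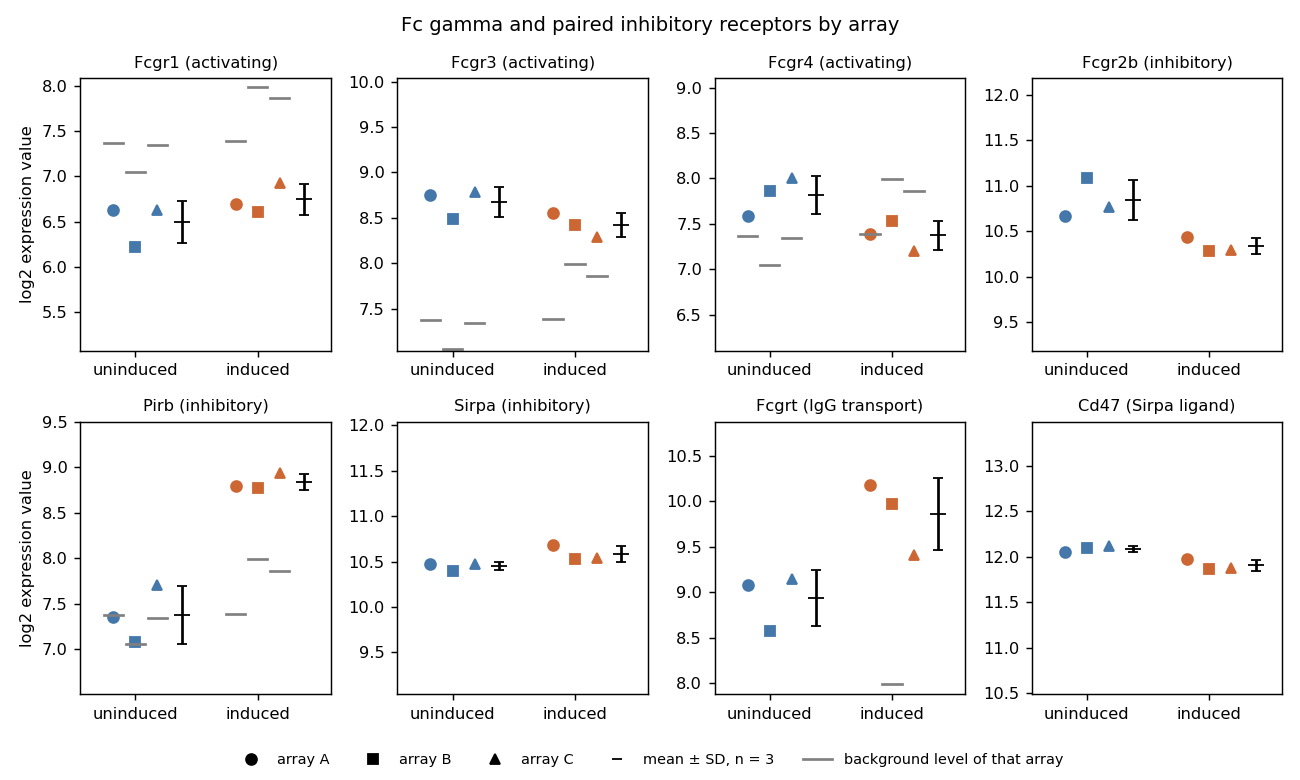
Log2 expression value (y axis, each panel spanning 3 units) of the 8 genes on the 3 uninduced and 3 induced arrays; symbols are arrays A, B and C, black bars are mean ± SD, and short grey lines mark the background level of the array, where it falls within the panel. Pirb sits between 7.07 and 7.71 without induction and between 8.78 and 8.94 with it, while Fcgr1 lies under the grey lines on all 6 arrays.

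For 6 of the 8 genes the groups did not overlap, with 3 higher and 3 lower in the induced arrays. Over all genes this was so for 31.4% (16% higher, 15.4% lower), a background against which the members' count is to be read. At an unadjusted p under 0.05 there were 2 higher (Pirb and Fcgrt) and 2 lower (Fcgr2b and Fcgr4), beside 11.4% and 16.9% of all genes. The median change of all genes was 0.06 as deposited and -0.06 after median centring. Among the brighter 11090 genes alone it was -0.25. The change of Cd47, a bright gene, was no larger than this, and that of Fcgr3 was about equal to it (-0.25). Fcgr4 and Fcgr2b, at -0.44 and -0.50, went further below 0 than this shift, whose part in their changes was not tested. Against that shift Pirb, Fcgrt and Sirpa were on the other side of 0 under each of the 4 scalings, and Fcgr4 and Fcgr2b stayed below 0 under each.

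**Figure D2:**
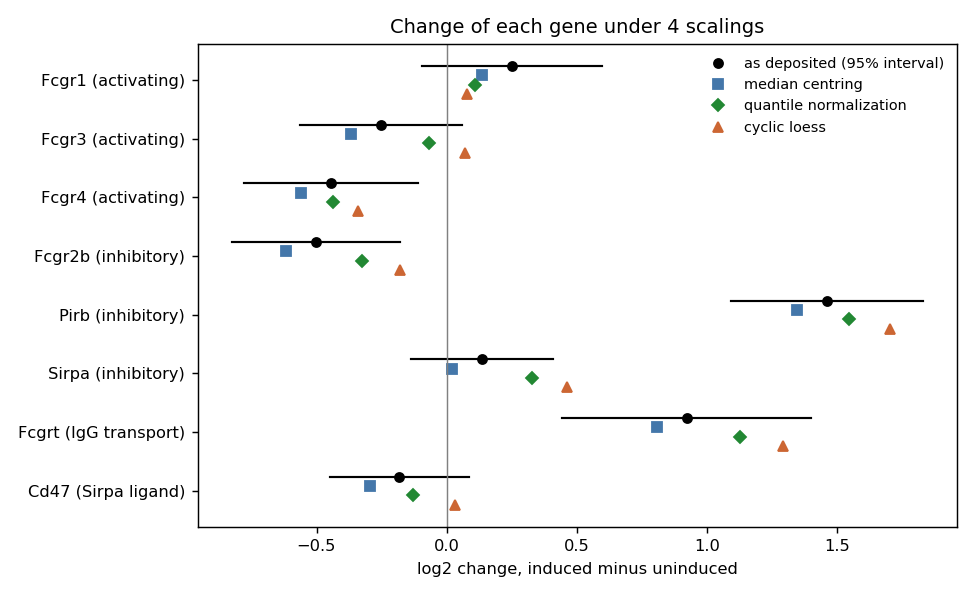
Log2 change, induced minus uninduced (x axis), of each of the 8 genes under 4 scalings of the arrays; the line through the black point is the 95% interval of the change as deposited. Pirb reaches 1.70 after cyclic loess and is above 1 under all 4, and Fcgr3 and Cd47 cross 0 after cyclic loess.

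The series' design also allows the activating and inhibitory receptors to be compared with each other, as the difference of 1 activating and 1 inhibitory gene within each array, which an overall shift of an array cannot move. Only the change of such a difference is given, since levels of different probes are not comparable. Its SE comes from the 3 arrays of each group alone, while limma pools spread over genes, so it is not comparable with the SE of a single gene. Of the 9 pairs, no size is drawn from the 3 with Fcgr1, since that gene was in the range of background on all 6 arrays. Fcgr4 was in that range on induced B and C, so the size of its pairs is uncertain. Pirb was in it on uninduced A and just above it on uninduced B, so the size of the Pirb pairs is uncertain too. Against Pirb the difference was lower by 1.71 on the log2 scale (SE 0.16) for Fcgr3, and at -1.90 (SE 0.23) for Fcgr4. In both pairs all 3 induced arrays lay below all 3 uninduced arrays. Against Sirpa the difference was lower for Fcgr4 (-0.58, SE 0.16) and Fcgr3 (-0.39, SE 0.08), also without overlap. Against Fcgr2b it was 0.25 (SE 0.23) for Fcgr3 and 0.06 (SE 0.17) for Fcgr4, both with overlapping groups, which does not show that these genes moved alike. The exact two-sided permutation test over 6 arrays cannot go below p = 0.1, which 6 of the 9 pairs reached, 2 of them with Fcgr1 (0.15 after adjustment over the 9 pairs), so no pair can pass.

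**Figure D3:**
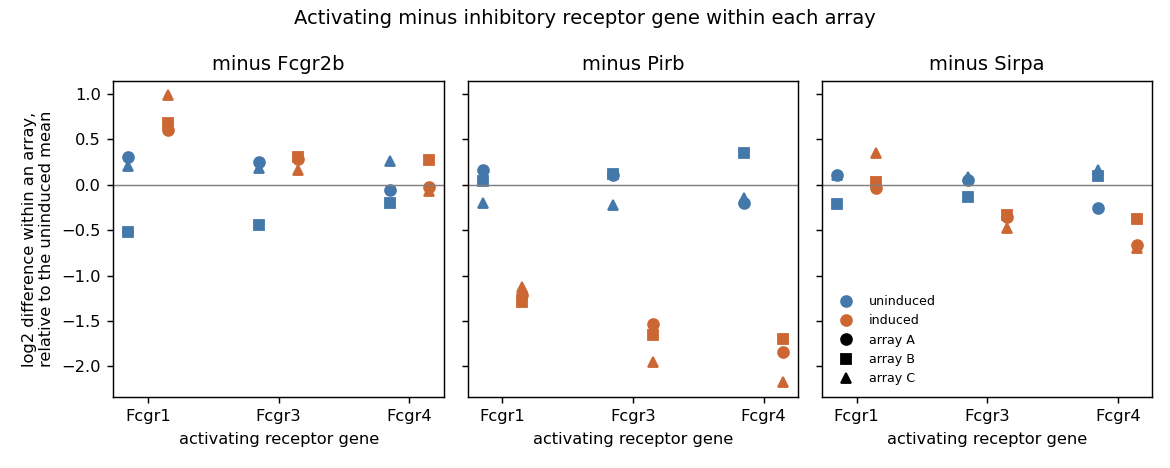
Log2 difference between an activating receptor gene (x axis) and Fcgr2b, Pirb or Sirpa (panels) within each array, set to 0 at the uninduced mean; points are arrays. All induced points of the Pirb panel lie below the uninduced ones, and in the Fcgr2b panel the groups overlap for Fcgr3 and Fcgr4. Fcgr1 was in the range of background on all 6 arrays.

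Fcgr2b, Fcgr4 and Fcgr3 lie in this order on chromosome 1, with 42855 bases between Fcgr2b and Fcgr4 and 21408 between Fcgr4 and Fcgr3. The extracellular parts of the receptors of Fcgr2b and Fcgr3 are closely alike, and how well their probes tell the RNAs apart is not known here. Of the measured genes within 150000 bases of this cluster none passed the test. The nearest ones, chosen after the values were seen, were the Fc receptor-like genes Fcrla and Fcrlb on one side and Cfap126, a gene of cilia and flagella, on the other, all in the range of background on all 6 arrays. Beyond Cfap126 lay Sdhc, a subunit of succinate dehydrogenase, which was measured on all 6 (-0.41, SE 0.19), and then Pcp4l1 (0.27, SE 0.16). Beyond Fcrlb lay Dusp12 (-0.64, SE 0.15), above that range on the uninduced arrays only, and then Atf6, measured on all 6 (-0.47, SE 0.22). These stand beside -0.50 for Fcgr2b and -0.44 for Fcgr4. Around Pirb none of the other measured genes within the same distance passed either. Its nearest neighbour Rps9, a ribosomal protein gene, was at -0.24 (SE 0.15), and Oscar, the osteoclast-associated receptor gene, was in the range of background.

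By the profile over the 6 arrays, the genes most like Pirb among 8249 genes above background on average were AB124611 (Pearson r = 0.991), Ampd3, an AMP deaminase (0.991), and Tyrobp, the adaptor DAP12 (0.989). Those most like Fcgrt were Cnr2, a cannabinoid receptor (0.998), Trem2, a receptor that signals through DAP12 (0.985), and Rgs9, a regulator of G protein signalling (0.968). For Fcgr2b they were Mtg1 (0.999), Ccp110 (0.999) and Whamm (0.998). For Fcgr4 they were Lair1, an ITIM receptor for collagen (0.992), Braf (0.989) and Dach1 (0.988), and for Fcgr3 Rad51c (0.969), D8Ertd738e (0.957) and Nedd1 (0.95). For Sirpa they were Hfe (0.971), an MHC class I-like regulator of iron uptake, Cyba (0.962), a subunit of the phagocyte oxidase, and Rp2 (0.962). For Cd47 the most alike was Mrpl24 (0.999), followed by Pcgf1 and Zmym2. These correlations describe 6 arrays that share the group difference and the spread of whole arrays.

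The genes around the receptors were read from lists. Of 25 adaptors and kinases of ITAM signalling 1 rose and 0 fell. The one that rose was Tyrobp, which was at 7.34, 7.30 and 8.08 in the uninduced arrays and at 10.65, 10.74 and 10.60 in the induced ones (3.09, SE 0.20, adjusted p = 5.82e-05). Uninduced A was in the range of background and uninduced B not far above it, so the size of this rise is uncertain. The adaptor that the Fc gamma receptors themselves use, Fcer1g, named for that role, was at 11.37 ± 0.09 and 11.53 ± 0.08 (SD, n = 3), a change of 0.17 (SE 0.13, adjusted p = 0.352). Syk, the kinase that both adaptors recruit, was at -0.01 (SE 0.14). The list's median change was -0.12, and 0.03 after cyclic loess, beside 0.06 as deposited over all genes.

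Of 20 phosphatases and adaptors of inhibitory signalling 1 rose and 0 fell. It was Ptprc, which did not leave the range of background on any array, so its size is not given, and which lost its call after median centring, after cyclic loess and without uninduced B (1.15, adjusted p = 0.0525). The effectors of the ITIM receptors, named for their role, did not pass: Inpp5d (SHIP1), the partner of Fcgr2b, was at -0.47 (SE 0.17, adjusted p = 0.137), Ptpn6 (SHP-1) at -0.06 (SE 0.15) and Ptpn11 (SHP-2) at -0.34 (SE 0.18). The list's median was -0.10, and 0.04 after cyclic loess.

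Of 42 other paired and inhibitory receptors 7 rose and 0 fell, or 15 and 2 by unadjusted p at 0.05. The median change was 0.26, and 0.12 to 0.15 under the other 3 scalings, each with 5 called higher. Of the 42, 29 were in the range of background on all 6 arrays. Marker lists of lineages other than macrophage and neutrophil, given below and mostly in that range, had medians from 0.01 (erythroid) to 0.27 (dendritic cell). The median is thus not read as a shift of these receptors. No uninduced array had any of the 7 above the range of background. Pilra, the inhibitory receptor of another pair, was at 6.90, 6.03 and 6.22 in the uninduced arrays and at 8.29, 8.67 and 8.03 in the induced ones. It rose at least 2.11-fold on the deposited scale (limma adjusted p = 0.0025). This bound is taken from the background level of the uninduced arrays. It does not allow for the higher background level of induced B and C or for another scaling. Sirpb1a, of the Sirpa family, and Siglece, an ITIM receptor for sialic acid, rose to above that range on 1 of 3 induced arrays each (adjusted p = 0.00649 and 0.0011). For both this was induced A, whose cut-off of 7.39 was below those of induced B and C (7.99 and 7.86). Siglece was at 7.66, 7.74 and 7.82 on induced A, B and C. Sirpb1c, of the same family as Sirpb1a, Klra17, an ITIM receptor of the Ly49 family, Milr1, an ITIM receptor known from mast cells, and Pilrb2, of the activating partners of Pilra, passed the test while below the background level of every array, so their sizes are not given. Milr1 and Pilrb2 lost their calls under median centring, quantile normalization and cyclic loess, and on leaving out any 1 uninduced array or induced B. The call of Pilrb2 was also lost without induced C. The brightest receptors of the list were not among those that rose: Lilrb4a, an ITIM receptor of myeloid cells, was at -0.09 (SE 0.16) and Cd33, of the sialic acid receptors, at -0.29 (SE 0.13), both named after their values were seen.

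Of 15 other Fc receptors and Fc receptor-like genes none passed in limma (3 higher and 1 lower at an unadjusted p under 0.05), and 13 were in the range of background on all 6 arrays. The median change was 0.09, and -0.04 to -0.02 under the other scalings. The brightest were the galectin gene Lgals3 (-0.40, SE 0.16) and Trim21, the receptor for antibody inside the cell (-0.17, SE 0.15). The IgE receptor chain Fcer1a was at 3.79 and 3.83 in the groups, in the range of background. Among 12 ligands of these receptors 1 fell and 0 rose: H2-K1, an MHC class I heavy chain of the kind that PIR-B binds, was at 10.10, 9.96 and 9.96 in the uninduced arrays and at 9.33, 8.70 and 8.68 in the induced ones (-1.10, SE 0.18, adjusted p = 0.0154). The groups did not overlap, and induced A was the nearest to the uninduced arrays. The call was lost after cyclic loess (-0.73, adjusted p = 0.0538) and without uninduced A, uninduced B, induced B or induced C (-1.13 to -0.99, adjusted p = 0.0549 to 0.0897). B2m, the light chain of MHC class I and of the neonatal Fc receptor, was at 0.12 (SE 0.13, adjusted p = 0.488), named for that role. The median of the ligands was 0.23, and 0.10 to 0.14 under the other 3 scalings, and 7 of the 12 were in the range of background on all 6 arrays.

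Of 27 genes of phagocytosis downstream of the receptors Cybb and Pla2g4a passed the test. Cybb, the catalytic subunit of the phagocyte oxidase, started in the range of background and rose (limma adjusted p = 5.82e-05). Its rise was at least 5.35-fold on the deposited scale, a bound taken as for Pilra and with the same limits. Pla2g4a, a phospholipase that frees arachidonic acid, fell (-0.77, SE 0.15, limma adjusted p = 0.0363). The call of Pla2g4a was lost under all 3 other scalings (-0.88 to -0.41, adjusted p = 0.0598 to 0.137) and on leaving out any array but induced A (-0.79 to -0.66, adjusted p = 0.106 to 0.184). The list's median was -0.10 as deposited, and 0.15 after cyclic loess.

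**Figure D4:**
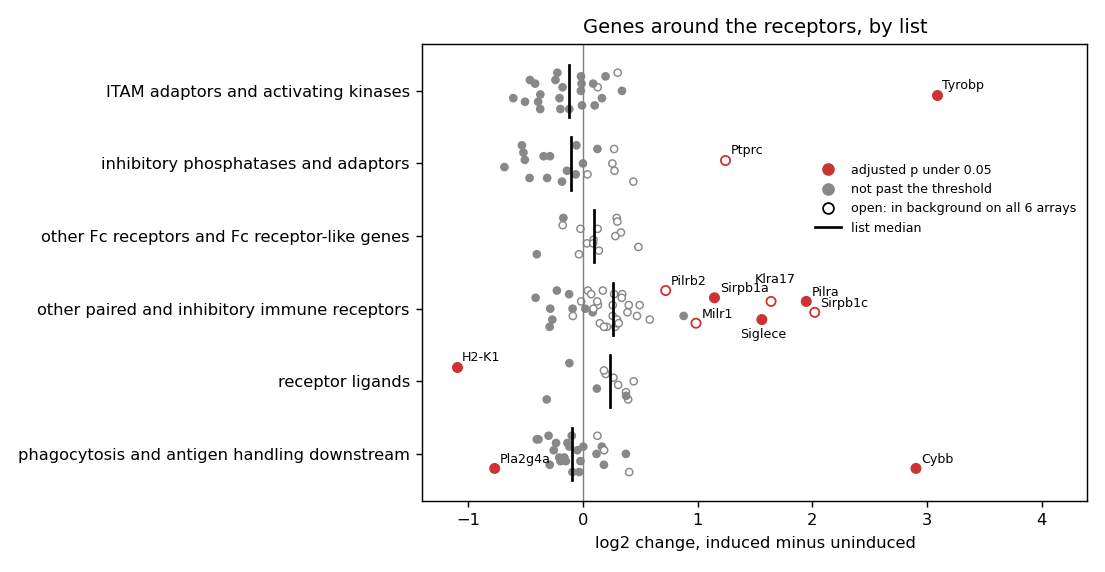
Log2 change, induced minus uninduced (x axis), of the measured genes of 6 lists; red points passed the test, open points were in the range of background on all 6 arrays, and the black bar is the list's median. The 7 receptors that rose stand to the right of their list's median of 0.26.

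Markers of cell types moved beside Pirb. Of 10 macrophage markers 4 rose (Adgre1, Cd68, Mrc1 and Mpeg1) and 0 fell, and the mean log2 value of the list went from between 6.93 and 7.05 on the uninduced arrays to between 7.62 and 7.93 on the induced ones. Adgre1, Mrc1 and Mpeg1 were in the range of background on every uninduced array, so their rise has no measured starting level. Csf1r, Mertk, Cd163 and Marco were in the range of background on all 6 arrays. The other members did not pass: Itgam was at 0.60 (SE 0.24) and Cd14 went the other way (-0.78, SE 0.31, adjusted p = 0.153). Of 11 neutrophil markers 5 rose (Mpo, Ltf, Mmp8, S100a9 and Csf3r) and 0 fell, and the list's mean went from between 8.76 and 8.89 to between 9.38 and 9.73. The calls of Mpo, Ltf and Csf3r were each lost without uninduced A, uninduced B or induced C. In the 9 lists of mast, B, T, NK, erythroid, megakaryocyte, dendritic, liver and stromal cells, 0 of 62 genes passed in limma (10 higher and 2 lower at an unadjusted p under 0.05), and 52 were in the range of background on all 6 arrays. Of the rest Kit, Prf1 and Cd209a were above it on all 6. Mcpt8, of the mast and basophil list and named after its values were seen, was above it on all arrays but induced B. Its mean was 8.67 in the uninduced and 7.76 in the induced arrays (-0.91, SE 0.21, limma adjusted p = 0.0666). The part of such shifts in the results on the receptors was not tested.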

How the data were processed

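Each of 6 RNA samples had 1 Affymetrix Mouse Gene 2.0 ST array, and groups follow the sample titles. The authors deposited log2 values for 41345 transcript clusters. Partek and build mm10 (GRCm38) are named per the submitters' processing notes; the version, background correction and normalization were not given in the sources used here. The scale was read from the values, 2.86 to 14.03. GEO's platform annotation gave the gene names: 23521 had 1 symbol, 1814 several, 16010 none listed. Of a gene's several clusters, that with the highest mean over the arrays was used, leaving 22180 genes. No symbol needed updating through RefSeq.

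The comparison used limma 3.58.1 (R 4.3.3; lmFit and eBayes), two-sided on all these genes without covariates, and Benjamini-Hochberg adjustment at 0.05; the script was tested on simulated data. Of 253 listed gene names outside the members 224 were matched. Members and lists were chosen with earlier results of these data known. Named are the members, up to 6 genes a list past the threshold (in the receptor list all 7), the 2 brightest where none passed, the 3 genes most like a member, and genes said to be named for a role or after their values were seen. Precision is limited by 3 arrays a group. Alternatives were the letter as a block, 3 scalings, filters at the 25th and 50th percentile, trend and robust moderation, array weights, the mean over a gene's clusters, leaving out each array, and, added after seeing the data, induced A alone.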

Additional observations from a re-analysis of the deposited data

How the results depend on the processing

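Over 16 alternatives (15 for Fcgr1, which the 50th percentile filter removes), 6 of the 8 genes kept their direction; Fcgr3 (0.068) and Cd47 (0.032) crossed 0 after cyclic loess. Members called were 1 higher and 0 lower as deposited. They became 2 higher with the replicate block, cyclic loess, or either dim-gene filter, 3 higher and 4 lower with array weights, and 0 higher with induced A alone. Genes called, 83 higher and 232 lower, became 174 and 425 with the replicate block, 51 higher with median centring, 118 lower with cyclic loess, 5825 and 5681 with array weights, and 41 and 19 with induced A alone. Leaving out 1 array gave 1 to 2 members higher and 0 to 1 lower, and 45 to 1998 genes higher and 47 to 3535 lower. The letters share no stated culture, and deviations of arrays with the same letter correlated at -0.31 (A), -0.28 (B) and 0.42 (C), so the letter was not taken as a pairing; with this block Fcgrt passed (adjusted p = 0.0208). The change of Fcgr1 (in the range of background) minus Sirpa was -0.22 after quantile normalization, -0.38 after cyclic loess and -0.00079 to 0.19 on leaving out 1 array. That of Fcgr4 minus Fcgr2b was -0.11, -0.16 and -0.048 to 0.19. The cause of these differences was not tested. Values in the range of background limit Fcgr1, induced Fcgr4 and most of the receptors that rose.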
